A study of Rattus norvegicus with 6 samples.

Results

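Genomic imprinting is the expression of a gene from only the copy inherited from the mother or only the copy inherited from the father, and imprinted genes lie in domains that usually hold at least one long noncoding RNA (lncRNA). The domain around Ins2 and Kcnq1 holds H19, a lncRNA expressed from the maternal copy, the growth factor gene Igf2, the insulin gene Ins2 and the potassium channel gene Kcnq1. The domain of Dlk1 and Meg3 holds the lncRNA Meg3 and large clusters of small RNAs, and the Gnas domain encodes the stimulatory G protein subunit that raises cAMP in beta cells. The lncRNAs described here are those of the deposited tables that lay wholly inside 3 windows of the rat genome Rnor_6.0 chosen around these genes. The windows were chromosome 1 from 215600000 to 217000000 (Ins2-Kcnq1 window), chromosome 6 from 133500000 to 134500000 (Dlk1-Meg3 window) and chromosome 3 from 172200000 to 172700000 (Gnas window). Of 18649 listed lncRNAs, 29 met the rule, with 23 in the Ins2-Kcnq1 window, 3 in the Dlk1-Meg3 window and 3 in the Gnas window.

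The data were RNA-Seq of INS-1 cells, a rat insulinoma line that makes insulin and stands in for pancreatic beta cells. There were 3 control samples (Con) and 3 samples kept for 24 h in high glucose (25 mM) with palmitate at 0.5 mM (HG/PA), the doses and time being those of the study's methods. The study calls its replicates biological, and neither it nor the labels say whether they were separate cultures, so p-values measure only the spread between these samples, part of which may be technical. The tables give FPKM, the fragments per kilobase of transcript scaled by the fragments of the sample. Multiplied by length, 99.94% or more of the FPKM values of a sample were whole multiples of 1 step, within 0.1 step. Values could thus be turned back into fragments. Implied totals, in units of 1000000 fragments, were 13.77, 12.49 and 12.53 in Con 1, 2 and 3, while those of HG/PA 1, 2 and 3 were 12.66, 13.69 and 13.19. A level resting on 3 fragments or fewer was treated as at the floor, and floors cover counting error only.

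Names could be given to none of these lncRNAs. The files do not pair identifiers with names, and 0 of the 29 identifiers, 26 from NONCODE and 3 from Ensembl, matched the RefSeq gene table, which is of another assembly (GRCr8). No level is therefore given for H19, Meg3 or any other named gene, and the window names state position alone. In that RefSeq table, the stretch from H19 to Kcnq1 holds 16 genes, of which 10 are protein-coding, 4 are lncRNAs and 2 are miRNAs. The stretch from Dlk1 to Dio3 holds 198 genes, of which 84 are snoRNAs, 59 are miRNAs, 6 are lncRNAs and 5 are protein-coding. Gene, exon and intron annotation of Rnor_6.0 was not used here, and protein-coding markers of beta cells or of other islet cells were not analysed here.

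In the Ins2-Kcnq1 window, 1 lncRNA fell in HG/PA and none of the other tested lncRNAs passed the adjusted threshold. NONRATT003379.2 lies on chromosome 1 from 216776030 to 216777427 and is unspliced, its span equalling its length of 1398 nt. Its FPKM was 2.81, 2.46 and 3.20 in Con 1, 2 and 3 and 0.678, 0.888 and 0.759 in HG/PA 1, 2 and 3. Every HG/PA sample was below every Con sample, and the gap between the groups was wider than the spread within either. In Con these levels rest on 54, 43 and 56 fragments, and the HG/PA levels on 12, 17 and 14, all above the floor. The mean was 2.82 ± 0.368 FPKM in Con and 0.775 ± 0.106 in HG/PA (SD, n = 3), so that the Con mean was 3.64 times the HG/PA mean. On the log2(FPKM + 0.1) scale, which understates changes of low values, the fold change was -1.74 (SE 0.24, 95% interval -2.30 to -1.18), with an adjusted p of 0.018 by limma with Benjamini-Hochberg adjustment over 17558 tested lncRNAs. Over all tested lncRNAs the median fold change stood at -0.11, and relative to it NONRATT003379.2 was at -1.62. The exact permutation test of the 3 against 3 FPKM values gave p = 0.1, the smallest it can give. The lncRNA ranked 54 by size of fall among 302 lncRNAs that fell at this threshold.

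The call on NONRATT003379.2 was lost when any 1 of the 6 samples was left out. Without Con 1, 2 or 3 its limma adjusted p was 0.083, 0.068 and 0.075, and without HG/PA 1, 2 or 3 it was 0.066, 0.06 and 0.062. The fold change was between -1.83 and -1.65 in these 6 fits. With a pseudocount of 1 in place of 0.1 it was -1.10 with a limma adjusted p of 0.022, and over all 14 alternative fits it ran from -1.85 to -1.10.

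As a background, 487 of the 17558 tested lncRNAs (2.77%) had an adjusted p below 0.05 in either direction by limma, and 302 (1.72%) fell at that threshold. Past a 2-fold change with an unadjusted p below 0.05, the threshold of the study's methods, there were 1140 lncRNAs (6.49%), of which 685 (3.9%) fell. The study reports far fewer lncRNAs at its threshold, and more of them upregulated than downregulated, the reverse of the direction here. It used edgeR and also took in newly assembled lncRNAs, so both its test and its set of lncRNAs may differ. What accounts for the gap was not tested. In the Ins2-Kcnq1 window, 1 of 22 tested lncRNAs passed the adjusted threshold and 1 passed the 2-fold rule, and it was NONRATT003379.2 in each case. A count of 1 is too small to set this window apart from the background shares. Rescaling the samples by the median of ratios moved the median fold change of all tested lncRNAs from -0.11 to 0.01 and the share of calls that rose from 38.0% to 57.6%. Under that rescaling NONRATT003379.2 was at -1.62 with a limma adjusted p of 0.025. Other settings moved the share of calls that rose too, to 52.3% in limma without a trend. It was 54.5% to 56.5% with a Con sample left out and 27.1% to 34.7% with an HG/PA sample left out. Against 302 lncRNAs that fell, there were 84 without a trend and 61 to 124 with a sample left out.

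**Figure D1:**
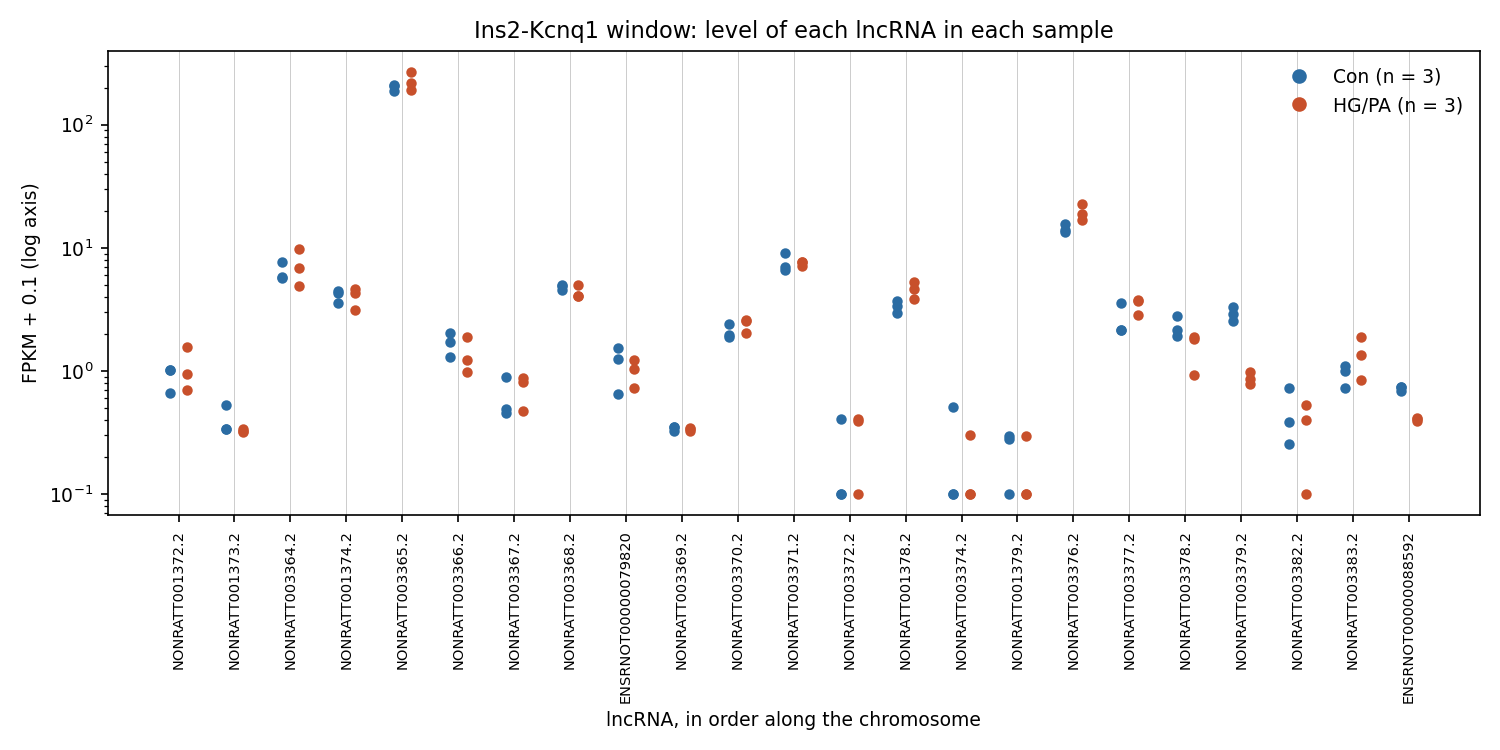
FPKM plus 0.1 of the 23 lncRNAs of the Ins2-Kcnq1 window on a log axis, in their order along the chromosome, with 1 point per sample (3 Con, 3 HG/PA). NONRATT003365.2 stands above all others in every sample, and at NONRATT003379.2 the HG/PA points lie apart from and below the Con points.

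Most of the window's fragments were counted to a single lncRNA. NONRATT003365.2, an unspliced lncRNA of 499 nt, had FPKM values of 185.8, 210.2 and 207.6 in Con and 268.1, 216.5 and 191.3 in HG/PA. The groups overlapped, HG/PA 1 being the highest sample and HG/PA 3 lying below Con 2 and Con 3. The fold change was 0.15 (SE 0.12) with a limma adjusted p of 0.59. It was 0.02 without HG/PA 1, 0.09 without Con 1, 0.26 without HG/PA 3 and 0.28 after median-of-ratios rescaling. By mean FPKM, which is per length, it ranked 13 among all 18649 lncRNAs. It held 69.4% ± 1.42 (SD, n = 3) of the window's fragments in Con and 69.1% ± 3.12 in HG/PA. Whether NONRATT003365.2 overlaps a protein-coding gene, such as Ins2, whose reads could be counted to it was not tested. Its level and share are therefore those of the reads assigned to this identifier. Per 1000000 fragments of the implied totals, the remaining 22 lncRNAs together held 42.8, 47.7 and 42.3 fragments in Con 1, 2 and 3, against 50.2, 53.0 and 45.9 with HG/PA. The groups overlapped, HG/PA 3 lying below Con 2.

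NONRATT003376.2 was next in level, spliced, with a length of 1455 nt over a span of 13.3 kb. Its FPKM was 13.8, 15.5 and 13.3 in Con and 18.7, 22.5 and 16.8 in HG/PA. All HG/PA values were above all Con values. The fold change was 0.44 (SE 0.13, 95% interval 0.12 to 0.75), and the limma adjusted p of 0.15 did not pass the threshold. NONRATT003377.2 lies inside its span and overlaps it over 852 bases, so reads of the pair may not be separable. Its FPKM was 2.05, 2.07 and 3.47 in Con and 3.62, 3.69 and 2.76 in HG/PA, with overlapping groups. Merged into 1 locus by summing fragments, the pair gave a fold change of 0.43 with a limma adjusted p of 0.14.

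NONRATT003379.2 lies in a row of lncRNAs whose HG/PA means lay on both sides of their Con means. From NONRATT003376.2 it is separated by NONRATT003378.2, which lies 24.5 kb before it. NONRATT003378.2 had FPKM values of 2.70, 2.06 and 1.82 in Con and 1.81, 0.835 and 1.73 in HG/PA. The groups just failed to touch, with 8 fragments in each of Con 3, HG/PA 1 and HG/PA 3, so that these samples were separated by their totals alone. The fold change of -0.61 (SE 0.34) had a limma adjusted p of 0.43. Without HG/PA 2, the lowest sample, it was -0.28, and with a pseudocount of 1 it was -0.39. On the other side, at 67.6 kb, NONRATT003382.2 had at most 4 fragments in any sample. NONRATT003383.2, next to it, had FPKM values of 0.906, 0.999 and 0.623 in Con and 0.740, 1.25 and 1.77 in HG/PA. Its groups overlapped, and HG/PA 1 was lower than Con 1 and Con 2.

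**Figure D2:**
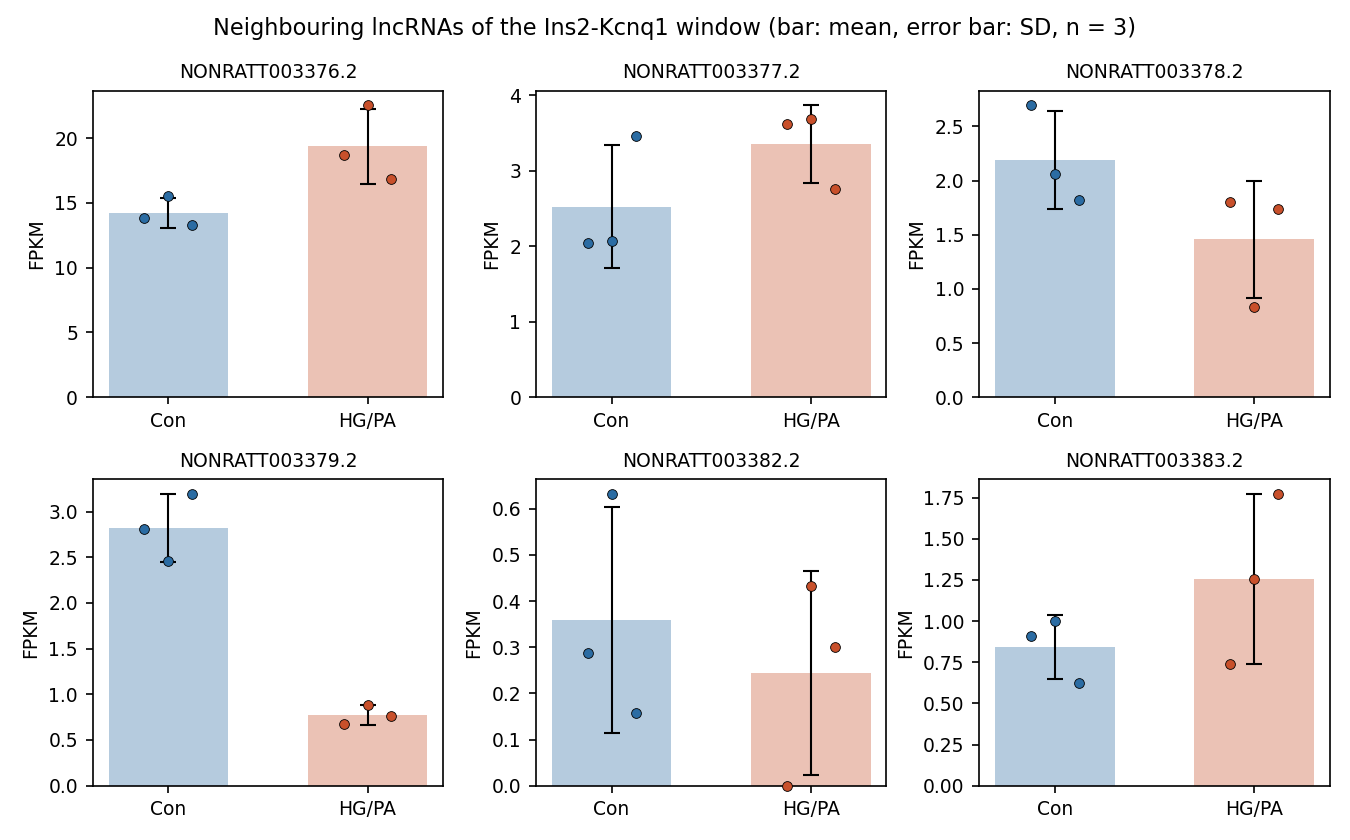
FPKM of NONRATT003379.2 and of the lncRNAs next to it in the Ins2-Kcnq1 window, with points for samples, bars for the mean and error bars for the SD (n = 3 per group); each panel has its own axis from 0. The HG/PA mean was 0.775 against 2.82 in Con for NONRATT003379.2, and it was above the Con mean for NONRATT003376.2, NONRATT003377.2 and NONRATT003383.2. For NONRATT003378.2 and NONRATT003382.2 the HG/PA mean was below the Con mean.

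A chain of 7 overlapping lncRNAs lies after NONRATT003365.2, among them ENSRNOT00000079820, which has the longest span of the window at 78.6 kb for a length of 1008 nt. The tables give no strand, so overlapping lncRNAs on opposite strands cannot be told apart in them. ENSRNOT00000079820 had FPKM values of 1.15, 1.43 and 0.554 in Con and 0.627, 0.942 and 1.13 in HG/PA, with Con 3 lowest and Con 2 highest. In the same chain, NONRATT003371.2 had 6.96, 9.05 and 6.47 in Con and 7.57, 7.54 and 7.08 in HG/PA. For NONRATT003368.2 the values were 4.47, 4.93 and 4.81 in Con and 3.95, 3.93 and 4.86 in HG/PA. In each of these 3 the groups overlapped, and limma adjusted p was 0.9, 1.0 and 0.66. Merged into 1 locus, the chain had 136, 145 and 117 fragments in Con against 124, 129 and 131 with HG/PA, a fold change of -0.07 and a limma adjusted p of 0.87.

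NONRATT003364.2, before the chain, was the fourth lncRNA of the window by mean FPKM. It had 5.75, 7.54 and 5.64 FPKM in Con and 9.64, 4.85 and 6.82 in HG/PA. HG/PA held both the highest and the lowest sample, and the limma adjusted p was 0.85. Across the 15155 loci made by merging overlapping lncRNAs, 14393 were tested and 536 (3.72%) had a limma adjusted p below 0.05. The 3 windows held 21 loci, of which 19 were tested and 1, NONRATT003379.2 alone, passed, with a limma adjusted p of 0.013.

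Complete separation of the groups was seen for 6 of the 22 tested lncRNAs of the Ins2-Kcnq1 window, against 4145 of 17558 (23.6%) in the whole table. Of the 6, 4 were lower and 2 were higher in HG/PA. An unadjusted limma p below 0.05 was reached by 4 of the 22, against 3042 of 17558 (17.3%). With limma-voom on the recovered fragments, 2 of the 22 had an unadjusted p below 0.05, against 3076 of 17558 (17.5%), and 1 had an adjusted p below 0.05, against 435 of 17558 (2.48%). The limma count of 4 stood near its background share, and the limma-voom counts of 2 and 1 are too small to compare with theirs. Besides NONRATT003379.2 and NONRATT003376.2, the 6 included 4 that were singled out after their values were seen, NONRATT003378.2, described above, NONRATT001378.2, NONRATT001373.2 and ENSRNOT00000088592. NONRATT001378.2 had 3.26, 3.60 and 2.87 FPKM in Con and 5.20, 3.72 and 4.54 in HG/PA. All HG/PA values were above all Con values, with a fold change of 0.45 (SE 0.19) and a limma adjusted p of 0.28. NONRATT001373.2 rested on 2, 1 and 1 fragments in Con and on 1 fragment in each HG/PA sample, so its separation came in part from the totals that the same single fragment was divided by. ENSRNOT00000088592 rested on 2 fragments in each Con sample and 1 in each HG/PA sample, which is under the floor, and no fold change is given.

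Of the 23 lncRNAs of the window, 16 had more than 3 fragments in at least 1 sample and 14 in all 6, while 7 never did. Among the 22 tested, 10 had a higher and 12 a lower value in HG/PA, with a median fold change of -0.01 beside -0.11 for all tested lncRNAs. NONRATT003374.2 did not pass the filter on low values, with 2 fragments in Con 2, 1 in HG/PA 1 and 0 elsewhere. The window held 16.4 listed lncRNAs per Mb, against 6.74 per Mb over the chromosomes as far as the tables reach. The windows of equal width before and after it held 12.9 and 0.714 per Mb. Every listed lncRNA was above 0 in at least 1 sample, so lncRNAs without fragments may be missing from these densities. Unspliced lncRNAs made up 7 of the 23 (30.4%), against 45.9% of all listed. The longest stretch without a listed lncRNA was 333 kb, between NONRATT001379.2 and NONRATT003376.2. At the window's far edge, NONRATT003387.2 reached 187 bases outside and was not counted; its fold change was -0.09 with a limma adjusted p of 0.92.

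**Figure D3:**
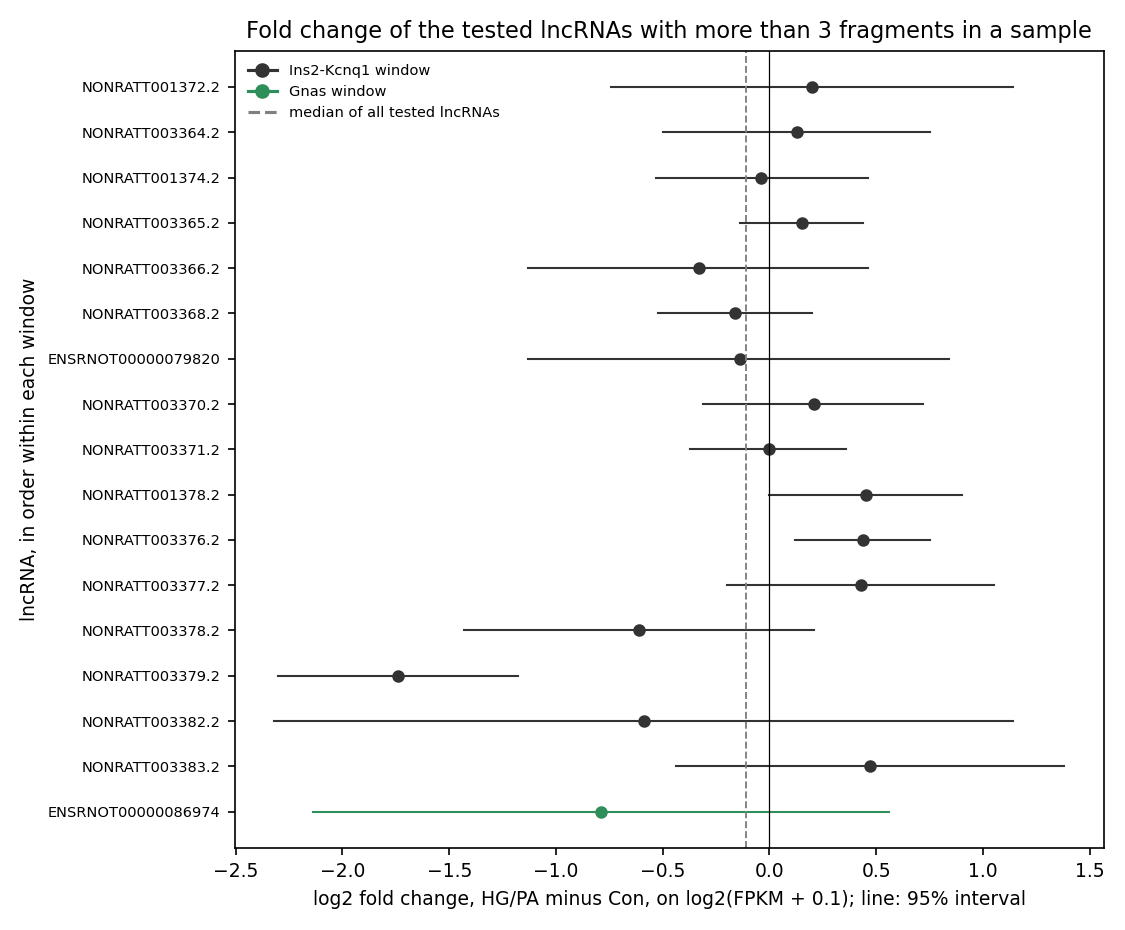
Fold change (HG/PA minus Con, log2(FPKM + 0.1) scale) with its 95% interval for the 17 tested lncRNAs of the windows with more than 3 fragments in a sample; the dashed line is the median of all tested lncRNAs (-0.11). The interval of NONRATT003379.2, -2.30 to -1.18, lies apart from the intervals of most others.

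In the Dlk1-Meg3 window, the 3 listed lncRNAs were at the floor in every sample. NONRATT024628.2, a spliced lncRNA of 6449 nt on chromosome 6 from 133667259 to 133682473, had 1, 0 and 2 fragments in Con and 0 in each HG/PA sample. It did not pass the filter on low values. In Con, NONRATT024661.2 had 1, 0 and 2 fragments, against 1, 0 and 0 with HG/PA. For NONRATT024662.2 there was 1 fragment in each Con sample, and there were 0, 2 and 2 in HG/PA. No difference was detectable at this depth, where 3 fragments correspond to an FPKM of 0.0338 to 0.0372 for NONRATT024628.2, 0.398 to 0.438 for NONRATT024661.2 and 0.298 to 0.328 for NONRATT024662.2. With limma, 0 of the 2 tested lncRNAs had an adjusted p below 0.05, 0 had an unadjusted p below 0.05, and 0 passed the 2-fold rule. With limma-voom on the recovered fragments, 0 had an adjusted p below 0.05 (2.48% of all tested) and 0 an unadjusted p below 0.05 (17.5% of all tested).

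Summed over the Dlk1-Meg3 window there were 3, 1 and 5 fragments in Con, against 1, 2 and 2 with HG/PA. The surroundings were not as low. The window of equal width before it held 7 lncRNAs with 70 to 95 fragments per sample, and the one after it held 18 with 646 to 773. In those neighbours 0 of 6 and 0 of 18 tested lncRNAs had a limma adjusted p below 0.05. A stretch of 208 kb without a listed lncRNA separates NONRATT024628.2 from NONRATT024661.2.

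In the Gnas window, 1 of the 3 listed lncRNAs rose above the floor in any sample. ENSRNOT00000086974, spliced, 1329 nt, on chromosome 3 from 172369888 to 172373909, had 6, 6 and 4 fragments in Con, against 4, 0 and 5 with HG/PA. Its FPKM was 0.328, 0.361 and 0.240 in Con and 0.238, 0 and 0.285 in HG/PA. The groups overlapped, and HG/PA 2 was the only sample at 0. The fold change was -0.79 (SE 0.57, 95% interval -2.14 to 0.56) with a limma adjusted p of 0.54, and without HG/PA 2 it was -0.17. Other settings moved it as well, to -1.81 with a pseudocount of 0.01, -0.16 with a pseudocount of 1 and -1.37 with limma-voom. At 1.05 kb from it lie NONRATT018952.2 and NONRATT018953.2, which overlap each other over 487 bases. Fragments of NONRATT018952.2 numbered 0, 0 and 2 in Con, against 0, 2 and 2 with HG/PA. NONRATT018953.2 had 2, 1 and 1 in Con, against 2, 1 and 2 with HG/PA. Both stayed under the floor.

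With limma, 0 of the 3 tested lncRNAs of the Gnas window had an adjusted p below 0.05, 0 had an unadjusted p below 0.05, and 0 passed the 2-fold rule; limma-voom gave 0 adjusted and 0 unadjusted, against 2.48% and 17.5% of all tested. The window of equal width before it held 4 lncRNAs with 327 to 425 fragments per sample, and the one after it held 1 with at most 2. The medians of tested lncRNAs, -0.30 in the Dlk1-Meg3 window and 0.21 in the Gnas window, rest almost entirely on values at the floor and carry no direction.

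**Figure D4:**
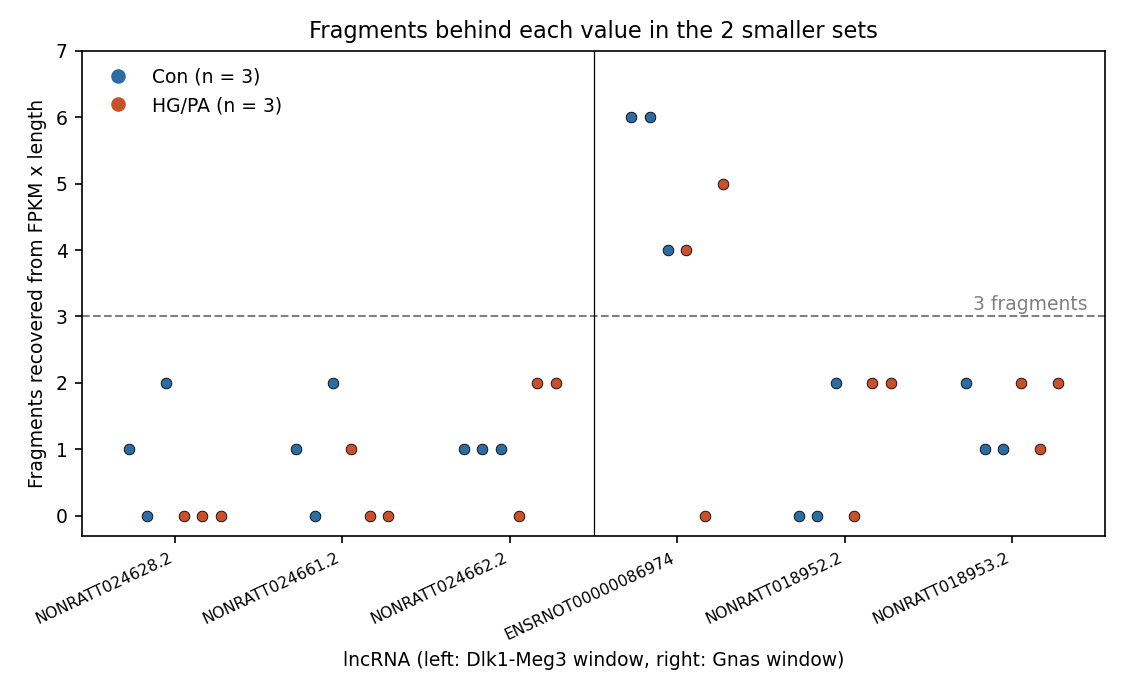
Fragments recovered in each sample for the 3 lncRNAs of the Dlk1-Meg3 window and the 3 of the Gnas window, with the floor of 3 fragments as a dashed line. Only ENSRNOT00000086974 has samples above the floor, and its HG/PA 2 sample is at 0.

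Both neighbours of the Ins2-Kcnq1 window held fewer listed lncRNAs than its 23, though the counts of the window before it were near its own. The window of equal width before it held 18 lncRNAs, of which 17 were tested and 1 had a limma adjusted p below 0.05, with a median fold change of -0.36. The one after it held 1 lncRNA. The median of the Ins2-Kcnq1 window lay above that of the window before it, a description for which no test was run.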

How the data were processed

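Per the labels and the study's methods, total RNA of 6 INS-1 samples was made into strand-specific libraries. After read cleaning with seqtk, the authors aligned to Rnor_6.0 using HISAT2 2.0.4 and deposited FPKM values from StringTie 1.3.0 for known lncRNAs, with NONCODE (v4) and Ensembl identifiers, scaled by mapped reads; the mapped totals are not given in the sources used here. The authors tested with edgeR; since the deposited unit is FPKM and not counts, limma 3.58.1 in R 4.3.3 (lmFit, eBayes with trend) was applied here to log2(FPKM + 0.1) of lncRNAs that reached 0.1 FPKM in 3 or more samples, with Benjamini-Hochberg adjustment. The procedure was tested on simulated data, in which the replicate spread was set rather than estimated from these samples. Only lncRNAs with mean levels above the floor were changed, so detection of changes at the floor was not tested. Fragments were recovered from FPKM times length, within 0.1 step for 99.94% of values or more. Replicates differed by more than counting noise (chi-square per degree of freedom 7.43 to 10.7). The rule for named lncRNAs took, per window, the 5 highest, those called, the 3 largest rises and falls past 2-fold with an unadjusted p below 0.05 and separated groups (no rise qualified), and the longest span; others are named as neighbours, as not passing the filter, or after their values were seen. Alternatives were other pseudocounts, filters and scaling, no trend, limma-voom, a replicate block, samples left out, window edges and locus overlap. Members and lists were chosen with earlier results of these data known.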

Additional observations from a re-analysis of the deposited data

How the results depend on the processing

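In the Ins2-Kcnq1 window, the count with a limma adjusted p below 0.05 was 1 and became 0 in each of the 6 fits that left out a sample (lowest 0, highest 0). The fits with fewer samples called fewer lncRNAs in the whole table too, 107 to 170 against 487. The count past a 2-fold change became 2 with a pseudocount of 0.01, where ENSRNOT00000088592, under the floor, was added. The median fold change of the Dlk1-Meg3 window moved from -0.30 to -1.10 with a pseudocount of 0.01, and ranged from -0.56 to 0.56 with a sample left out. That of the Gnas window ranged from -0.52 to 0.34 against 0.21. These medians rest on 1 to 3 lncRNAs near the floor, and no lncRNA of these 2 windows passed a filter at an FPKM of 1.

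With a replicate block, the count in the Ins2-Kcnq1 window was 0 and the count of merged loci was 0, against 1 in each; NONRATT003379.2 had a limma adjusted p of 0.11 against 0.018 (0.011 to 0.11 over its 14 alternatives), its fold change being one that a block cannot alter in a balanced design, and the whole table had 16 calls. Deviations of samples with the same number were not correlated (-0.017, -0.014 and -0.032), and 0 of 6 samples correlated best with its own number. These values show no pairing by number, but with so few samples they cannot exclude that samples were handled in pairs.

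Uncalled values near 0 changed sign. NONRATT003371.2 was at 0.13 after median-of-ratios rescaling and from -0.10 to 0.14 with a sample left out, NONRATT003364.2 from -0.12 to 0.37, and ENSRNOT00000079820 from -0.50 to 0.11. NONRATT003379.2 was lower in HG/PA in all 14 alternative fits and called in 7 of them.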
